A study of Homo sapiens with 10 samples.

Results

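The effect of 12 Gy of ionising radiation on cells that had first received LBP was described across all expressed genes. LBP is the polysaccharide-glycoprotein of Lycium barbarum, the goji plant. The comparison used 5 of the 10 libraries of the study, chosen by their column labels: 3 libraries of irradiated cells pretreated with LBP and 2 libraries of LBP-pretreated cells that were not irradiated. The cells were HaCaT, a spontaneously immortalised human keratinocyte line labelled as wild type, with mucosa given as its source, grown in RPMI medium with fetal bovine serum. Both groups had LBP for 24 h, so the agent is common to them and the radiation is what differs. The irradiated LBP group (n = 3) was taken 3 h after exposure, the LBP group (n = 2) without exposure. An irradiated vehicle group (n = 3) and a vehicle group (n = 2), given vehicle in place of LBP, served to ask where the radiation effect after LBP differed. Their libraries also entered the model that estimated the spread, and so had a part in every p-value and standard error. The labels call the libraries of a group repeated experiments and do not say that they were separate cultures, so p-values measure the spread between these libraries, which may be technical.

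Ionising radiation breaks DNA, and the kinases ATM and ATR answer by holding cells before mitosis through CHK1 and CHK2. Many genes of late G2 and mitosis are driven by the MuvB complex with B-MYB and FOXM1 and are silenced by the DREAM complex, which binds the cell cycle genes homology region (CHR) of their promoters. In parallel, DNA damage is known to raise CDKN1A and other genes of arrest and death.

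Library depth in the comparison ran from 31830506 to 47950059 counts, and 14799 of 22003 features were expressed enough to be tested. Levels are in CPM, a library's counts per feature scaled to a common total with TMM factors for composition. A feature with no count could still lie at up to 0.0626 to 0.0942 CPM, the level of 3 counts, which allows for counting error alone. All 10 keratinocyte markers were present, with a summed level of 5480 to 5820 FPKM in irradiated LBP and 5930 to 6140 FPKM in LBP libraries. KRT8, KRT18, KRT7 and other genes of simple and mucosal epithelium, of which HaCaT is known to carry some, summed to 3650 to 4140 FPKM in irradiated LBP and 4010 to 4600 FPKM in LBP libraries. Fibroblast, endothelial, melanocyte and leukocyte markers summed to at most 10.2 FPKM, and PECAM1, TEK, TYR, SOX10, CD3E, CD3D, DCN and COL1A2 were listed at 0 in all 5 libraries. Irradiated LBP replicate 3 stood apart from its group. It lay at -37.5 on the principal component that carried 13.4% of the variance, against 8.24 and 2.65 for the other two irradiated LBP libraries, and had 45 features at least 2-fold above both of them, against 10 and 11 in those libraries. Irradiated LBP replicate 2 lay at -37.2 on the next component (12.7% of the variance). Values without either library are given beside the results that they move most.

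After LBP, 12 Gy lowered genes of late G2 and mitosis, which made up most of the calls of edgeR. In all, 21 of 14799 features changed (0.142%), 19 lower (0.128%) and 2 higher (0.0135%), by edgeR's quasi-likelihood test at a Benjamini-Hochberg adjusted p under 0.05. The lower ones included the mitotic kinase gene AURKA, the cyclin genes CCNF and CCNB1, the spindle gene FAM83D and the centromeric histone gene CENPA. Those that rose were MUC1, encoding a cell surface mucin, and PDE8B, encoding a cyclic AMP phosphodiesterase. At an unadjusted p under 0.05 there were 2003 features (13.5%), 980 higher (6.62%) and 1023 lower (6.91%), and the median log2 fold change of all tested features was 0.00. Both the number and its split moved with the tool and the libraries. DESeq2 called 184, 80 higher and 104 lower. With only the irradiated LBP and LBP groups in the model, edgeR called 10, of which 7 were among the 21. In edgeR 12 were higher and 21 lower without irradiated LBP replicate 1, 24 and 27 without replicate 2, and 1 and 23 without replicate 3. Without LBP replicate 1 it was 4 higher and 11 lower, and without LBP replicate 2 it was 1 and 7.

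The promoters of the genes that fell are shown because the letters of the CHR occur in most of them. RefSeq promoters (GRCh38.p14, from 250 bases before to 50 bases after the transcription start) were at hand for 13 of the 19 features. Both strands were searched for TTTGAA, read as TTCAAA on the opposite strand, and for TTCGAA, the core letters of the CHR. They were also searched for CCAAT, read as ATTGG on the opposite strand, the box bound by NF-Y. Neither motif contains the other. TTTGAA or TTCGAA was found in 10 of the 13 (76.9%), in 46 of 66 G2 and mitosis genes with a promoter (69.7%), in 11.1% of 10709 promoters of tested features and in 16.6% of all 27305 promoters. CCAAT was found in 10 of the 13 (76.9%), in 36.7% of promoters of tested features and in 35.7% of all promoters. A match is a description of the letters and not a binding site. The stretch from 150 bases before to 30 bases after the start is printed for 4 genes with TTTGAA or TTCAAA near the start and for CCNB1, which had neither TTTGAA nor TTCGAA in its 300 bases but CCAAT at 2 places of the printed stretch. Capitals mark the motifs, and the positions of the CHR letters are counted from the start.
CENPA promoter, chr2:26785906-26786085, plus strand, CHR letters at -18: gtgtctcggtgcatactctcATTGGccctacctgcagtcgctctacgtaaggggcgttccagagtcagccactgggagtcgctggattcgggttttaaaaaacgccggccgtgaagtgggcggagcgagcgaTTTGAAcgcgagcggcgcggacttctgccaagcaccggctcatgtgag
KIF18A promoter, chr11:28108127-28108306, minus strand, CHR letters at -10: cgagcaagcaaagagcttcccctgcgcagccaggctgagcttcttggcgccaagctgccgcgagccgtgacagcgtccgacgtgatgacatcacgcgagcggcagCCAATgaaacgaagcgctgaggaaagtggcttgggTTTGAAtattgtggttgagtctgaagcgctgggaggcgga
GTSE1 promoter, chr22:46296720-46296899, plus strand, CHR letters at -26: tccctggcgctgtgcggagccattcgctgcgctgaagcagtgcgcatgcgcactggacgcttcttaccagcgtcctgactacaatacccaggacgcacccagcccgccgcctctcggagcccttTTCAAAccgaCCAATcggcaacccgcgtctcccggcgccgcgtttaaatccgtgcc
KIF23 promoter, chr15:69414199-69414378, plus strand, CHR letters at -55: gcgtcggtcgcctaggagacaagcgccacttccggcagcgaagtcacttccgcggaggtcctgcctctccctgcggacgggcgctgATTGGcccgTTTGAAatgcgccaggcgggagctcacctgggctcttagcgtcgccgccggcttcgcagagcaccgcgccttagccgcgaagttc
CCNB1 promoter, chr5:69167000-69167179, plus strand: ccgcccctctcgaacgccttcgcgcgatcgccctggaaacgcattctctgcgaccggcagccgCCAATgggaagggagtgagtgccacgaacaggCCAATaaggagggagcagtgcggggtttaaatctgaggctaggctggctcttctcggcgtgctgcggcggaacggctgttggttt

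Among mitotic kinases, AURKA, which matures the spindle poles, had the lowest fold change of the cell cycle genes that passed. AURKA stood at 70.2, 81.9 and 82.5 CPM in irradiated LBP cells, against 153 and 182 CPM in LBP cells, a log2 fold change of -1.10 ± 0.09 (standard error, SE; adjusted p = 0.000222). All 3 irradiated libraries lay below both others, at 46.8% of the mean of LBP cells. PLK1, the kinase needed for mitotic entry, stood at 92.1, 120 and 136 CPM in irradiated LBP and 171 and 212 CPM in LBP cells; the groups did not overlap, but the spread was wide and the difference of -0.72 ± 0.13 missed the threshold (adjusted p = 0.073). TTK and BUB1B, kinases of the spindle checkpoint, had differences of -0.49 ± 0.08 and -0.39 ± 0.07 (adjusted p = 0.051 and 0.073). CDK1, the kinase that cyclin B activates, stood at 88.6, 86.4 and 89.7 CPM in irradiated LBP and 115 and 109 CPM in LBP cells, a difference of -0.34 ± 0.07 (adjusted p = 0.12). In bulk RNA, fewer cells in G2 or mitosis and less of these RNAs per cell cannot be told apart. PLK1 passed without irradiated LBP replicate 3 (adjusted p = 0.0262) and BUB1B without replicate 2 (adjusted p = 0.039). Of the 10 mitotic kinase genes, 1 fell and 6 had an unadjusted p under 0.05 with lower levels. Of all tested features 0.128% fell and 6.91% met that unadjusted criterion, and 14% had irradiated LBP levels below both LBP levels.

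Cyclins and their degradation machinery gave 3 of 12 genes that fell, where 0.128% of all tested features did. CCNF, encoding the ubiquitin ligase subunit cyclin F, stood at 34.8, 41.0 and 34.8 CPM in irradiated LBP cells, against 71.5 and 78.5 CPM in LBP cells (log2 fold change -1.03 ± 0.09, adjusted p = 0.000222). CCNB1, encoding the cyclin B1 partner of CDK1, stood at 196, 218 and 199 CPM in irradiated LBP cells, against 304 and 353 CPM in LBP cells (-0.69 ± 0.08, adjusted p = 0.0021). In both genes the gap between the groups was wider than the range within either. With only these 2 groups in the edgeR model CCNF passed (adjusted p = 0.0109), while the call of CCNB1 was lost (adjusted p = 0.0522). UBE2C, the ubiquitin-conjugating enzyme of the anaphase-promoting complex, had 141 ± 1.76 CPM (SD) in irradiated LBP and 211 ± 20.1 CPM in LBP cells and fell by 0.58 on the log2 scale (adjusted p = 0.0089). CDC20, an activator of that complex, and CCNB2, the gene of cyclin B2, had differences of -0.41 ± 0.10 and -0.27 ± 0.07 (adjusted p = 0.19 and 0.21). CKS2, encoding a small subunit of CDK1 complexes and outside the list of G2 and mitosis genes, fell by 0.64 on the log2 scale (adjusted p = 0.036). The calls of UBE2C and CKS2 were lost without LBP replicate 2 (adjusted p = 0.189 and 0.571), and that of CKS2 also without LBP replicate 1 or irradiated LBP replicate 1 (adjusted p = 0.0685 and 0.0662).

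Of 24 spindle and kinesin genes, 4 fell and 22 had an unadjusted p under 0.05 with lower levels. Those 2 criteria were met by 0.128% and 6.91% of all tested features. FAM83D, which brings casein kinase 1 to the spindle, stood at 66.9, 81.7 and 69.8 CPM in irradiated LBP cells, against 133 and 156 CPM in LBP cells (-0.99 ± 0.09, adjusted p = 0.00053). KIF18A, a kinesin that aligns chromosomes by damping microtubule growth, stood at 22.2, 22.5 and 24.0 CPM in irradiated LBP cells, against 42.3 and 40.0 CPM in LBP cells (-0.85 ± 0.11, adjusted p = 0.0083). GTSE1, a microtubule-binding protein, stood at 24.6, 26.2 and 29.2 CPM in irradiated LBP cells, against 42 and 49.3 CPM in LBP cells (-0.78 ± 0.09, adjusted p = 0.0029). Each of these 3 genes separated the groups without overlap, as did 14% of all tested features with lower levels. With only these 2 groups in the edgeR model FAM83D and KIF18A passed (adjusted p = 0.0154 each), while the call of GTSE1 was lost (adjusted p = 0.0619). KIF23, the kinesin of the central spindle, fell by 0.59 on the log2 scale (adjusted p = 0.0083), while its partner RACGAP1 had a difference of -0.40 ± 0.07 (adjusted p = 0.0512, and 0.0249 without irradiated LBP replicate 2). KIF18B, a kinesin-8 that is outside the list and the naming rule and was named after its values were seen, fell by 0.49 (adjusted p = 0.036). Without LBP replicate 2 the adjusted p was 0.102 for KIF18A, 0.0742 for GTSE1, 0.0715 for KIF23 and 0.537 for KIF18B. Without LBP replicate 1 it was 0.0848 for KIF18A, 0.0841 for KIF23 and 0.0702 for KIF18B, whose call was also lost without irradiated LBP replicate 1 or 2 (adjusted p = 0.0781 and 0.0567).

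Of 14 kinetochore and centromere genes, 3 fell and 13 had an unadjusted p under 0.05 with lower levels. Those 2 criteria were met by 0.128% and 6.91% of all tested features. CENPA, the histone H3 variant that marks centromeres, stood at 15.2, 14.6 and 15.9 CPM in irradiated LBP cells, against 26.9 and 28.9 CPM in LBP cells (-0.87 ± 0.09, adjusted p = 0.0010). HJURP, the chaperone that places CENPA and is listed with the chromosome regulators, stood at 61.3, 67.1 and 64.0 CPM in irradiated LBP cells, against 95.1 and 112 CPM in LBP cells (-0.69 ± 0.08, adjusted p = 0.0029). The histone variant and its chaperone were thus both lower, with no overlap between groups, as in 14% of all tested features with lower levels. CDCA8, encoding the borealin subunit of the chromosomal passenger complex, fell by 0.60 and CDCA2, a subunit that targets protein phosphatase 1 to chromatin, by 0.66 on the log2 scale (adjusted p = 0.010 and 0.0083). NDC80 and KNSTRN, of the outer kinetochore and its attachment to microtubules, had differences of -0.57 ± 0.11 and -0.46 ± 0.08 (adjusted p = 0.084 and 0.073), and KNSTRN passed without irradiated LBP replicate 2 (adjusted p = 0.0249). Besides HJURP, the 17 chromosome structure and regulator genes held CKAP2, a microtubule-associated protein, ARHGAP11A, a GTPase-activating protein, and G2E3, a ubiquitin ligase of G2, which fell by 0.61, 0.53 and 0.53 (adjusted p = 0.0029, 0.015 and 0.042). Without LBP replicate 2 the adjusted p was 0.063 for HJURP, 0.192 for CDCA8, 0.117 for CDCA2, 0.117 for ARHGAP11A and 0.243 for G2E3. Without LBP replicate 1 it was 0.0622 for CKAP2, 0.072 for CDCA2, 0.114 for ARHGAP11A and 0.14 for G2E3, and without irradiated LBP replicate 2 or 3 it was 0.0674 or 0.114 for G2E3.

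**Figure D1:**
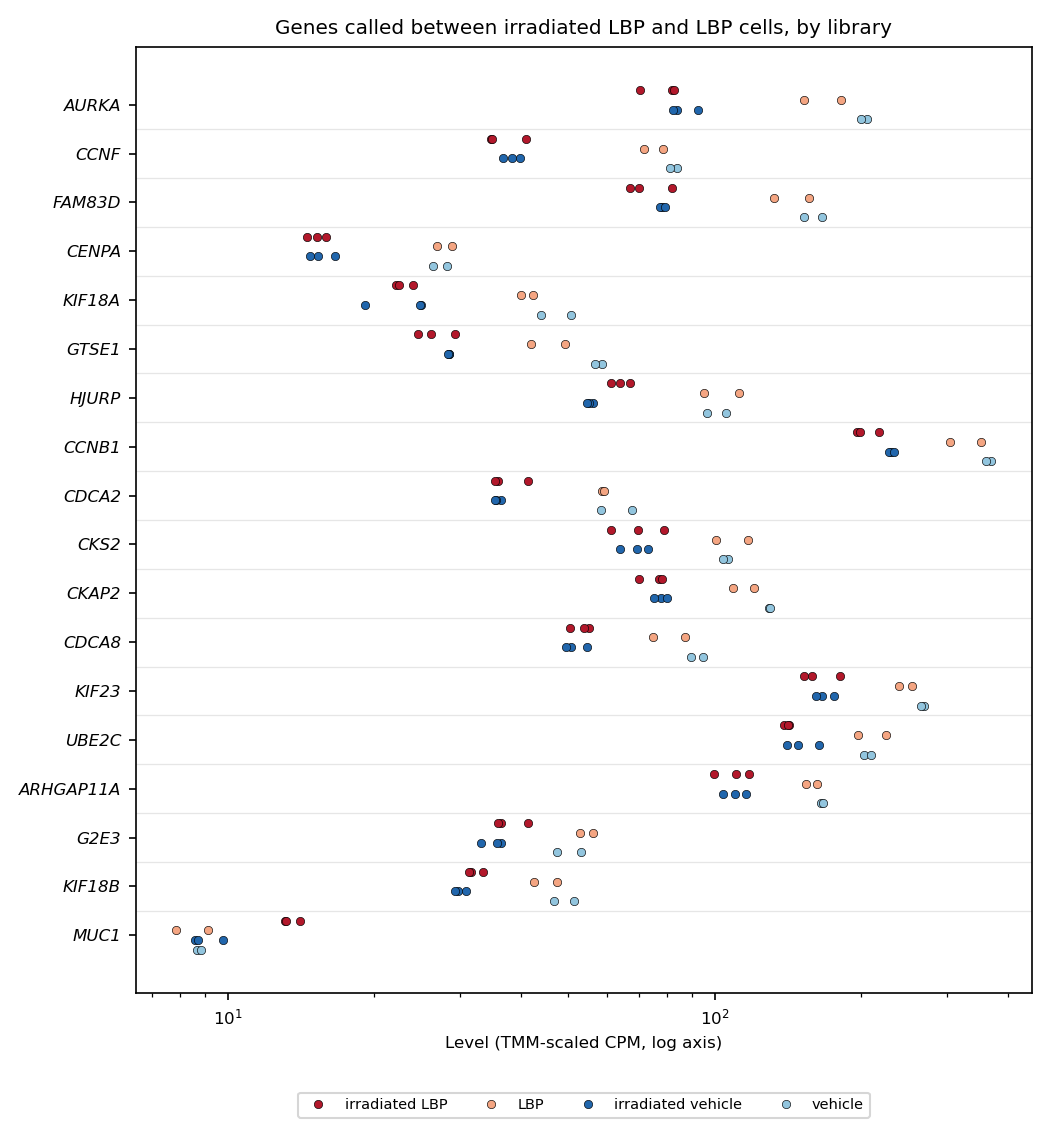
Levels of 18 named genes called between irradiated LBP and LBP cells, on a log axis of TMM-scaled CPM; each point is 1 library, coloured by group, with the vehicle groups for comparison. In the 17 genes that fell, the 3 irradiated LBP libraries lie left of both LBP libraries, as in AURKA with 70.2 to 82.5 against 153 and 182 CPM, and in MUC1 they lie to the right.

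Lower values extended over the list of 77 genes of G2 and mitosis, of which 15 fell, where 0.128% of all tested features did. Of the 77, 74 had negative values, against 49.5% of all tested features; 62 had an unadjusted p under 0.05 with lower levels and 65 had irradiated LBP levels below both LBP levels, whereas 6.91% and 14% of all tested features met those 2 criteria. The median was -0.38, against 0.00 for all tested features. Their summed level was 7711, 8294 and 8008 CPM in irradiated LBP libraries and 10190 and 10600 CPM in LBP libraries, so replicate 3 of the irradiated LBP group did not stand apart in these genes. PIF1, a helicase, and PSRC1, a spindle protein, were named after their values were seen and had larger but more scattered differences of -0.90 ± 0.16 and -0.90 ± 0.19 (adjusted p = 0.063 and 0.12). PSRC1 stood at 9.27, 11.2 and 16.7 CPM in irradiated LBP cells, against 22.0 and 24.3 CPM in LBP cells. Without irradiated LBP replicate 3, the highest of its group in both genes, PIF1 and PSRC1 passed (adjusted p = 0.00705 and 0.00289). The number of members that fell was 9 without LBP replicate 1 and 6 without LBP replicate 2, 20 and 18 without irradiated LBP replicate 2 and 3, and 49 with DESeq2.

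Set beside the radiation effect without LBP, most of the genes that fell after LBP had also fallen without it. The comparisons have no library in common. Of the 19 features lower after LBP, 17 were also lower without LBP (89.5%), and these are 28.3% of the 60 that fell without LBP (0.405%), where 65 of 14799 features (0.439%) passed, or 25 to 35 when any 1 vehicle or irradiated vehicle library was left out. The 17 are the named cell cycle genes above. AURKA had a log2 fold change of -1.10 ± 0.09 after LBP and -1.24 ± 0.09 without LBP, CCNB1 -0.69 ± 0.08 and -0.67 ± 0.08, and CENPA -0.87 ± 0.09 and -0.81 ± 0.09, in that order. Of the 43 that fell only without LBP by the threshold, 40 had negative values after LBP and 36 an unadjusted p under 0.05 there. Over the 77 genes of G2 and mitosis, Pearson's r between the 2 effects was 0.83, against -0.03 over 11624 features with a mean log2 CPM of at least 1; these are descriptions across genes, which are not independent replicates.

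The difference between the radiation effects was tested directly as an interaction, and 0 G2 and mitosis genes passed in edgeR or in DESeq2. The effect was less negative after LBP in 57 of the 77 genes, and the median difference was 0.09 on the log2 scale (a median of -0.38 after LBP and -0.52 without LBP). At an unadjusted p under 0.05 the difference was above 0 in 11 genes and below 0 in 1, where 3.93% and 4.26% of all tested features met those 2 criteria. PIF1 stood at 4.06, 4.75 and 6.39 CPM in irradiated LBP cells against 8.95 and 10 CPM in LBP cells, and at 3.96, 3.66 and 3.76 CPM in irradiated vehicle cells against 12.8 and 13.3 CPM in vehicle cells. Its difference between effects was 0.88 ± 0.23 (interaction, adjusted p = 0.57). Every irradiated LBP library lay above every irradiated vehicle library, and both LBP libraries lay below both vehicle libraries. Among irradiated cells the summed level of the 77 genes lay the other way from PIF1. It was 7711, 8294 and 8008 CPM in irradiated LBP and 8561, 8571 and 8417 CPM in irradiated vehicle libraries. Without irradiation this sum was 10190 and 10600 CPM in LBP and 11900 and 11820 CPM in vehicle libraries. DEPDC1, encoding a transcriptional co-repressor of dividing cells, and BUB1B had differences of 0.32 ± 0.14 and 0.26 ± 0.10, and CDK1 one of -0.26 ± 0.10, none past the threshold (adjusted p = 0.60 each). The radiation effect on DEPDC1 itself, -0.56 ± 0.10 after LBP (adjusted p = 0.054), passed without irradiated LBP replicate 3 (adjusted p = 0.0134). A p above the threshold does not show that the effects were equal.

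**Figure D2:**
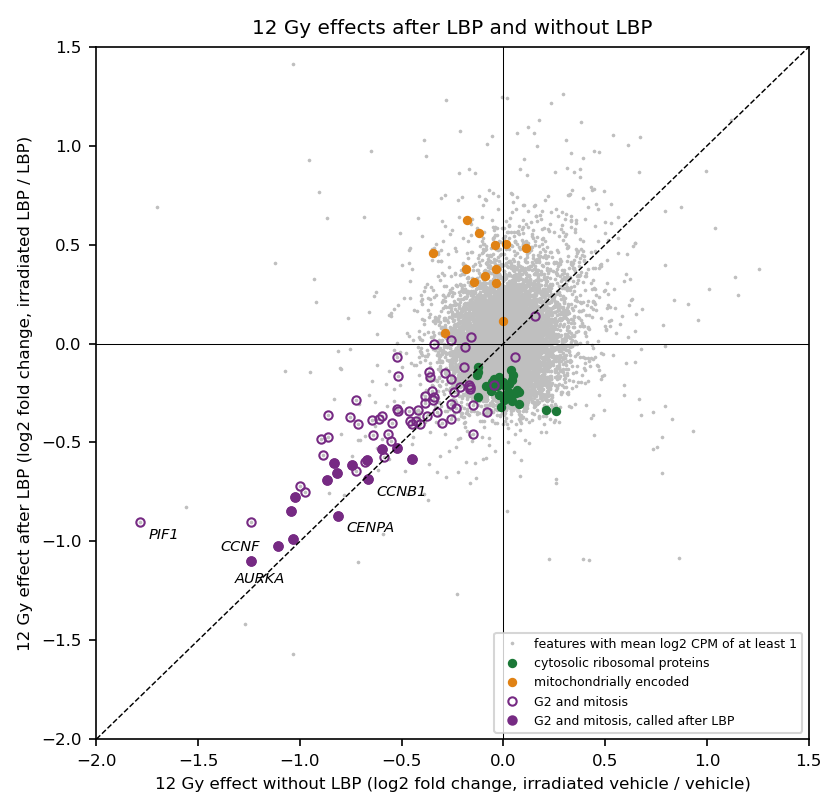
Log2 fold change with 12 Gy after LBP (vertical axis) against that without LBP (horizontal axis) for 11624 features, of which 23 lie beyond the axes; the dashed line marks equal effects. G2 and mitosis genes (purple) run along the line at the lower left, most of them above it, while ribosomal protein genes (green) lie below the centre and mitochondrially encoded genes (orange) above it.

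Of the features that rose, MUC1 stood at 14.1, 13.1 and 13.1 CPM in irradiated LBP cells, against 9.12 and 7.84 CPM in LBP cells, a log2 fold change of 0.67 ± 0.11 (adjusted p = 0.043). The groups did not overlap, as in 14% of all tested features with higher levels. The irradiated vehicle and vehicle libraries lay between 8.57 and 9.80 CPM. Without LBP its difference was 0.04 ± 0.11, and the difference between the effects was 0.62 ± 0.15 (interaction, adjusted p = 0.57). It was the 1 gene called among 10 tested genes of simple and mucosal epithelium, whose median was -0.20. MUC1, at 155185824 to 155192916 on the minus strand of chromosome 1 (GENCODE v29 on GRCh38), overlaps AL713999.1 on its strand. Its call was lost without irradiated LBP replicate 1 or 3 or LBP replicate 1 or 2 (adjusted p = 0.0789, 0.0826, 0.0827 and 0.656).

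The other 3 features that passed were at or near 0 in 1 group. They were named after their values were seen. PDE8B had 61, 45 and 65 counts in irradiated LBP libraries and 0 in both LBP libraries, at least 19.7-fold higher against a limit of 3 counts per library (adjusted p = 0.00022). It had 37, 60 and 47 counts in irradiated vehicle and 37 and 55 counts in vehicle libraries, so that only the LBP libraries were at 0. AC008982.1 had 0 counts in all 3 irradiated LBP libraries and 21 and 18 in LBP libraries, at least 6.13-fold lower (adjusted p = 0.015); in contrast it had 22, 34 and 33 counts in irradiated vehicle and 0 in both vehicle libraries. AL355312.5 had 4, 2 and 6 counts in irradiated LBP libraries and 427 and 386 in LBP libraries, 98.3-fold lower from the counts summed over each group and divided by its summed raw library totals, without TMM, with a counting interval (exact Poisson, 95%) of 56.0 to 191 (adjusted p = 4.6e-06). Of all counts from 1 to 10 in the table, 59.7% were even; if both mates of a read pair were counted, which was not tested, this interval would be too narrow and the limit of 3 counts too low. It had 0, 2 and 3 counts in irradiated vehicle and 4 and 4 in vehicle libraries, which leaves the LBP libraries alone with a level. In edgeR the interaction passed for PDE8B and AC008982.1 and for no other feature (2 of 14799, 0.0135%), while DESeq2 called 16. With libraries left out in turn, 0 features passed it without LBP replicate 2, 5 without irradiated LBP replicate 1 and 4 without irradiated vehicle replicate 2.

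These 3 features are annotated as protein coding in GENCODE v29, and each shares its strand with other genes. PDE8B lies on chromosome 5 at 77210449 to 77429807 (plus strand, with AC022414.1 and ALDH7A1P1), AC008982.1 on chromosome 19 at 38817471 to 38840178 (minus strand, with ECH1 and HNRNPL) and AL355312.5 on chromosome 6 at 149817937 to 149896011 (minus strand, with AL355312.4, LRP11 and RAET1E). How reads were divided among overlapping genes is not given in the sources used here, so the part of that division in these levels was not tested. In all, 5 features (PINX1, AC112229.3, AL035461.3, AL031777.2 and AC008982.1) had 0 counts in every irradiated LBP library and at least 10 in both LBP libraries, and 2 (PDE8B and IL31RA) had the opposite pattern. Without LBP replicate 1 or 2 the call of AC008982.1 was lost (adjusted p = 0.0848 and 0.117).

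Damage-induced genes of arrest and death did not pass. Of 37 tested, edgeR called 0, 7 had an unadjusted p under 0.05 with higher levels and 2 with lower levels, and the median log2 fold change was 0.05. At that unadjusted p, 6.62% of all tested features were higher and 6.91% lower. DESeq2 called 1 of the 37 genes higher (TNFRSF10B, a death receptor), and 3 passed in edgeR without irradiated LBP replicate 2 (TNFRSF10B, CDKN1A and GADD45A). CDKN1A, the p21 inhibitor of cyclin-dependent kinases, stood at 225, 126 and 244 CPM in irradiated LBP cells, against 160 and 147 CPM in LBP cells (0.37 ± 0.21, adjusted p = 0.447). Irradiated LBP replicate 2 lay below both LBP libraries and the other two above them; without it the difference was 0.61 and passed (adjusted p = 0.0332). MDM2, a ubiquitin ligase, stood at 43.7, 43.3 and 45.2 CPM in irradiated LBP cells, against 40.8 and 35.2 CPM in LBP cells (0.21 ± 0.08, adjusted p = 0.30). GDF15, a stress cytokine, stood at 0.82, 0.68 and 5.67 CPM in irradiated LBP cells, against 0.82 and 0.84 CPM in LBP cells, with replicate 3 alone high. Its difference was 1.53 ± 0.75 with that library and -0.14 without it. BBC3, encoding the death promoter PUMA, had the same form, with 2.44, 2.90 and 13.9 CPM in irradiated LBP cells, against 1.64 and 2.46 CPM in LBP cells, a value of 1.65 with replicate 3 and 0.38 without it. GADD45A, a damage-induced gene that restrains CDK1, and BTG2, an antiproliferative gene, had values of 0.45 ± 0.22 and 0.51 ± 0.23 (adjusted p = 0.40 and 0.35), and GADD45A passed without irradiated LBP replicate 2 (adjusted p = 0.0486). SESN2 and CCNG2, of stress and cell cycle control, had values of 0.75 ± 0.22 and 1.03 ± 0.32 (adjusted p = 0.24 and 0.26). Replicate 3 was the highest irradiated LBP library in BTG2, SESN2 and CCNG2, whose values without it were 0.14, 0.45 and 0.47; those of CDKN1A and GADD45A were 0.20 and 0.24.

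Among genes of DNA replication, repair and death, edgeR called 0, and DESeq2 called E2F2 and BCL2L11 higher (adjusted p = 0.0436 and 0.0114) and H2AX lower (adjusted p = 0.00688). At an unadjusted p under 0.05 in edgeR, 1 gene of each of these 3 lists was higher, and 1, 3 and 3 were lower. Of all tested features 6.62% were higher and 6.91% lower at that p. The 40 replication and S phase genes had a median of -0.03 and the 8 G1/S regulators among them 0.13, all 8 with positive values, against 50.4% of all tested features; E2F2 had the smallest p of these, 0.39 ± 0.11 (edgeR, adjusted p = 0.24). The 40 genes of double-strand break repair and damage signalling had a median of 0.00. H2AX, the histone variant phosphorylated at breaks, stood at 132, 137 and 125 CPM in irradiated LBP cells, against 159 and 180 CPM in LBP cells, without overlap (-0.37 ± 0.08, adjusted p = 0.14). Among all tested features, 14% had irradiated LBP levels below both LBP levels. The 20 apoptosis regulators had a median of 0.00, and BCL2L11, encoding BIM, had a value of 0.49 ± 0.12 (adjusted p = 0.19). Of 25 tested replication-dependent histone genes, whose transcripts lack a poly(A) tail, 18 had negative values, against 49.5% of all tested features. Their median was -0.23 after LBP and -0.44 without LBP. H2BC12 stood at 15.8, 17 and 14.8 CPM in irradiated LBP cells, against 19.6 and 20.8 CPM in LBP cells (-0.35 ± 0.09, adjusted p = 0.23).

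Immediate early genes and cytokine genes leaned higher after irradiation, with a wide spread among the 3 irradiated LBP libraries, and edgeR called 0 of either list. DESeq2 called 2 immediate early genes higher, KLF4 and FOSL2 (adjusted p = 0.000755 and 0.00263), the same 2 passed in edgeR without irradiated LBP replicate 2, and KLF4 passed with no filter on low counts. Of 31 immediate early genes, 11 had an unadjusted p under 0.05 with higher levels and the median was 0.38. Of 29 NF-kB and cytokine genes 11 also met that criterion, with a median of 0.55. It was met by 6.62% of all tested features. ATF3, a stress-induced transcription factor, stood at 25.9, 14.5 and 82.0 CPM in irradiated LBP cells, against 16.8 and 17.3 CPM in LBP cells (1.26 ± 0.51, adjusted p = 0.318). FOS, a subunit of AP-1, stood at 4.06, 2.62 and 10.4 CPM in irradiated LBP cells, against 3.11 and 2.13 CPM in LBP cells. EGR1, another early transcription factor, stood at 36.2, 16.7 and 59.7 CPM in irradiated LBP cells, against 26.1 and 18.4 CPM in LBP cells. In each of these genes replicate 3 was the highest library of the group and replicate 2 lay among the LBP libraries or below both. IL6 stood at 11.2, 8.04 and 28.7 CPM in irradiated LBP cells, against 7.33 and 9.08 CPM in LBP cells, and the chemokine gene CXCL8 at 22.9, 9.43 and 36.7 CPM, against 15.5 and 13.1 CPM. JUN, the partner of FOS in AP-1, had a value of 0.28 ± 0.19 (adjusted p = 0.55; 0.50 without irradiated LBP replicate 2). Without replicate 3 the values were 0.26 for ATF3, against 1.26 with it, 0.36 for FOS (1.13 with it), 0.26 for EGR1 (0.76 with it), 0.24 for IL6 (0.97 with it) and 0.20 for CXCL8 (0.69 with it). The median of the cytokine list was 0.16 without replicate 3 and 0.71 without replicate 2, and that of the immediate early list 0.19 and 0.59. The vehicle comparison gave medians of 0.302 and 0.295 for the cytokine and immediate early lists.

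Among early and ERK feedback genes with less scatter, KLF4, a transcription factor of epithelial cells, stood at 50.5, 33.3 and 47.8 CPM in irradiated LBP cells, against 28.3 and 26.6 CPM in LBP cells (0.68 ± 0.15, adjusted p = 0.151). FOSL2, of the AP-1 family, and DUSP1, a phosphatase of MAP kinases, also had no overlap between groups, with values of 0.59 ± 0.14 and 0.69 ± 0.17 (adjusted p = 0.20 each). All 3 passed without irradiated LBP replicate 2 (adjusted p = 0.00576, 0.0155 and 0.0494). Among all tested features, 14% had irradiated LBP levels above both LBP levels. The EGF family ligand genes EREG and HBEGF stood at 47.2, 24.3 and 81.9 CPM and at 49.9, 23.2 and 76.4 CPM in irradiated LBP cells, against 32.9 and 22.7 CPM and 33.5 and 25.6 CPM in LBP cells. Groups overlapped in both, and the values were 0.38 and 0.32 without replicate 3, against 0.88 and 0.76 with it. DESeq2 called DUSP1 higher (adjusted p = 0.0243), the 1 call in its list. Of the 15 ERK target and feedback genes, 2 had an unadjusted p under 0.05 with higher levels and 1 with lower levels (median 0.17). Those criteria were met by 6.62% and 6.91% of all tested features.

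**Figure D3:**
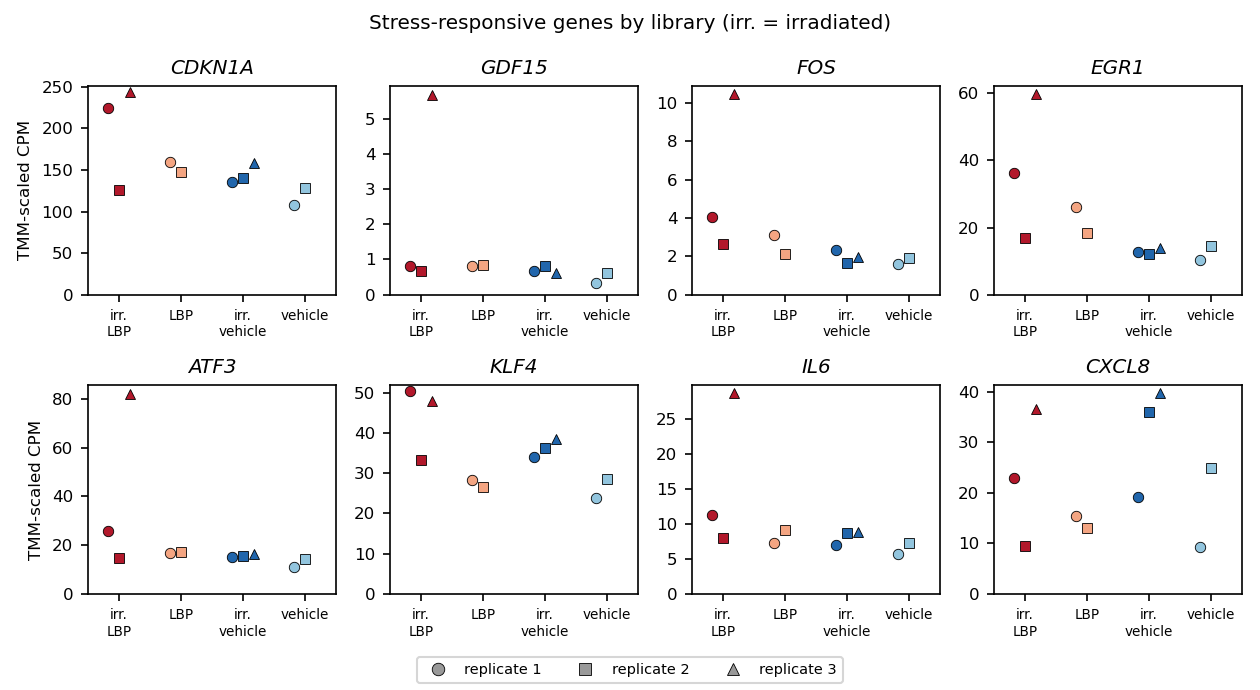
TMM-scaled CPM of 8 stress-responsive genes in each library, by group, with the marker shape giving the replicate number. Irradiated LBP replicate 3 (triangle) is far above the other libraries for GDF15, FOS, EGR1, ATF3 and IL6, as in ATF3 at 82.0 CPM, while replicate 2 (square) lies near the LBP libraries; in KLF4 all 3 irradiated LBP libraries lie above both.

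Heat shock genes leaned lower and genes of the endoplasmic reticulum stress response leaned higher, and edgeR called 0 of either list. DESeq2 called 3 heat shock genes lower, HSPE1, HSPA1A and HSPA8, the constitutive HSP70 (adjusted p = 0.00147, 0.0159 and 0.0196), and 0 genes of the reticulum response. Of 21 heat shock chaperone genes, 20 had negative values, 13 an unadjusted p under 0.05 with lower levels and 13 irradiated LBP levels below both LBP levels, with a median of -0.24 after LBP and -0.11 without LBP. Of all tested features 49.5% had negative values and 14% had irradiated LBP levels below both LBP levels. At an unadjusted p under 0.05, 6.91% of all tested features were lower and 6.62% higher. HSPE1, the small mitochondrial co-chaperonin, stood at 140, 143 and 140 CPM in irradiated LBP cells, against 169 and 187 CPM in LBP cells (-0.34 ± 0.06, adjusted p = 0.086). HSPA1A, encoding the inducible HSP70, stood at 350, 405 and 298 CPM in irradiated LBP cells, against 421 and 555 CPM in LBP cells (-0.48 ± 0.13, adjusted p = 0.24). In both genes the irradiated LBP libraries lay below both LBP libraries; reads of HSPA1A may be shared with its near-identical copy HSPA1B, so its level is uncertain. The 20 genes of the endoplasmic reticulum response had a median of 0.12, 5 of them higher and 1 lower at an unadjusted p under 0.05, and its chaperone HSPA5 a value of 0.24 ± 0.08 (adjusted p = 0.28). The 29 integrated stress response genes had a median of 0.13 and 7 with an unadjusted p under 0.05 and higher levels, among them CHAC1, a glutathione-degrading enzyme, at 40.2, 29.8 and 54.2 CPM in irradiated LBP cells, against 25.0 and 24.8 CPM in LBP cells (0.74 ± 0.19, adjusted p = 0.22, and 0.0249 without irradiated LBP replicate 2). DESeq2 called CHAC1 (adjusted p = 0.00438).

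Antioxidant genes driven by NRF2 and targets of the aryl hydrocarbon receptor gave 0 calls in edgeR with radiation on top of LBP, and DESeq2 called TRIM16 lower (adjusted p = 0.00748). Of 36 NRF2 antioxidant genes, 29 had negative values, 5 an unadjusted p under 0.05 with lower levels and 1 with higher levels (median -0.12). Of all tested features 49.5%, 6.91% and 6.62% met those criteria, in that order. HMOX1, haem oxygenase, stood at 113, 75.0 and 88.7 CPM in irradiated LBP cells, against 103 and 127 CPM in LBP cells (-0.32 ± 0.18, adjusted p = 0.46, and -0.19 without irradiated LBP replicate 2), levels far from the 3.55 to 6.16 CPM of the vehicle groups. TRIM16, a regulator of protein aggregates that NRF2 raises, stood at 351, 271 and 273 CPM in irradiated LBP cells, against 402 and 428 CPM in LBP cells (-0.48 ± 0.12, adjusted p = 0.20, and 0.0331 without irradiated LBP replicate 1). NQO1, a quinone reductase, had a value of -0.24 ± 0.09 (adjusted p = 0.31; -0.16 without irradiated LBP replicate 2), and CYP1A1, the cytochrome P450 of the receptor pathway, -0.08 ± 0.15 (adjusted p = 0.845), which was 0.02 without irradiated LBP replicate 2 and 0.06 without LBP replicate 2. TXNIP, a thioredoxin inhibitor, had 0.09 ± 0.13 (adjusted p = 0.79), and -0.05 without irradiated LBP replicate 2. The 8 aryl hydrocarbon receptor targets had a median of -0.01, with 1 higher and 1 lower at an unadjusted p under 0.05.

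Lists of keratinocyte state, matrix and lipid metabolism gave 0 calls in edgeR. Among genes called higher by DESeq2 were ITGA5 and NOTCH1, a Notch receptor (adjusted p = 0.0133 and 0.0376). Without irradiated LBP replicate 2, genes called higher by edgeR included LAMB3, a laminin subunit, and JAG1, a Notch ligand. The 19 basal keratinocyte genes had a median of 0.12, with 7 at an unadjusted p under 0.05 and higher levels, such as COL17A1, of the hemidesmosome, at 0.21 ± 0.08. That criterion was met by 6.62% of all tested features. The 26 differentiation genes had a median of 0.14 and the 13 activation keratins and alarmins -0.17. The 24 matrix remodelling genes had a median of 0.19, and ITGA5, the fibronectin receptor subunit, and FN1, fibronectin itself, had values of 0.44 ± 0.11 and 0.41 ± 0.14 (adjusted p = 0.20 and 0.29). The 26 cholesterol and fatty acid genes had a median of 0.17. The 24 transcription regulators with unstable transcripts had a median of 0.19. The 15 Notch genes had a median of 0.11, the 30 hypoxia and glycolysis genes 0.07, the 18 autophagy genes 0.04 and the 30 interferon-stimulated genes -0.07.

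**Figure D4:**
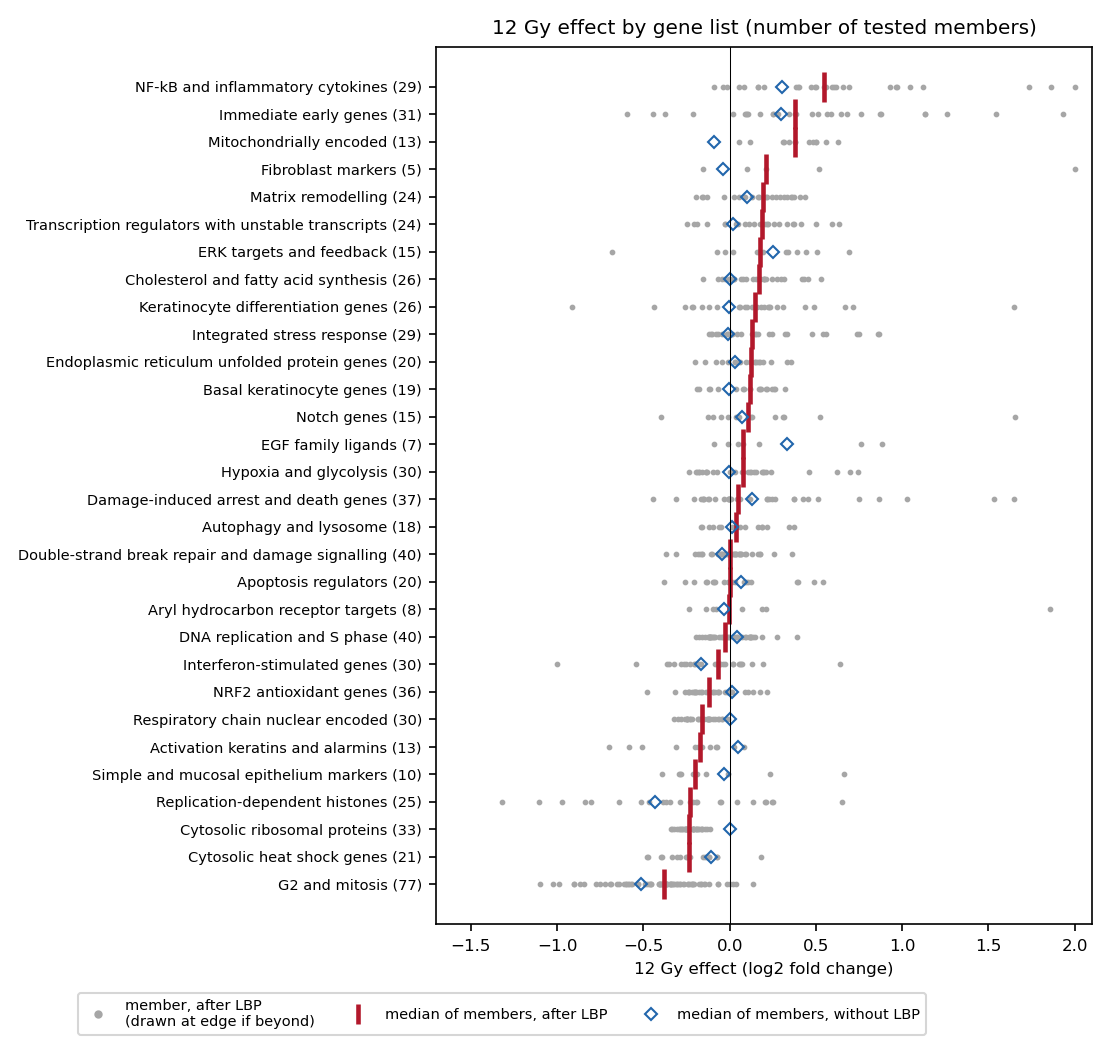
Log2 fold change with 12 Gy for the tested members of 30 gene lists; grey points are members after LBP, red bars their median and blue diamonds the median without LBP. The G2 and mitosis list has the lowest median after LBP (-0.38), the NF-kB and cytokine list the highest (0.55), and the mitochondrially encoded list stands at 0.38 after LBP and -0.09 without LBP. Irradiated vehicle replicate 3 was low in the mitochondrially encoded list, at 18440 CPM summed, against 30350 and 29880 CPM in irradiated vehicle replicates 1 and 2.

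The listed ribosomal protein genes, nuclear genes of the respiratory chain and genes of the mitochondrial genome each had values of 1 sign, and edgeR called 0 of them. DESeq2 called 4 of the 33 listed ribosomal protein genes lower (RPL32, RPL35, RPS12 and RPL27, adjusted p = 0.00748, 0.0134, 0.0455 and 0.0359). It called COX5B of the respiratory chain list lower (adjusted p = 0.0137) and 0 mitochondrially encoded genes. Beyond these, DESeq2 called lower the ribosomal protein genes RPL29, RPL21, RPL24, RPS13 and RPS3A (adjusted p = 0.00147, 0.00608, 0.00767, 0.0223 and 0.0276). NDUFB4 and ATP5MPL were also called lower (DESeq2, adjusted p = 0.0123 and 0.0316). MT-ND1 was called higher with a replicate block (adjusted p = 0.0413), and MT-ND1 and MT-ND2 with the length trend removed and the block (adjusted p = 0.0133 and 0.0314). Many ribosomal protein genes have processed pseudogenes that may share their reads. All 33 listed cytosolic ribosomal protein genes had negative values, 22 an unadjusted p under 0.05, with a median of -0.24 after LBP and 0.00 without LBP. Of all tested features 49.5% had negative values, and 6.91% were lower and 6.62% higher at an unadjusted p under 0.05. RPL32, of the large subunit, stood at 338, 356 and 369 CPM in irradiated LBP cells against 420 and 474 CPM in LBP cells, and at 389, 407 and 425 CPM in irradiated vehicle cells against 338 and 367 CPM in vehicle cells. Its difference between the effects was -0.54 ± 0.11 and that of RPL35 -0.60 ± 0.12 (interaction, edgeR, adjusted p = 0.49 each), and DESeq2 called the interaction of both. All 30 nuclear-encoded respiratory chain genes had negative values, 13 with an unadjusted p under 0.05 (median -0.16), such as COX5B at 93.0, 93.7 and 99.4 CPM in irradiated LBP cells, against 112 and 127 CPM in LBP cells (adjusted p = 0.16). All 13 mitochondrially encoded genes had positive values, 5 with an unadjusted p under 0.05, with a median of 0.38 after LBP and -0.09 without LBP. The value without LBP involved 1 low library, irradiated vehicle replicate 3. The 13 genes summed to 30350, 29880 and 18440 CPM in irradiated vehicle libraries and 29780 and 25500 CPM in vehicle libraries. MT-ND2, a subunit of complex I, stood at 1829, 1495 and 1404 CPM in irradiated LBP cells, against 1171 and 1055 CPM in LBP cells (0.50 ± 0.17, adjusted p = 0.28). The ribosomal protein genes summed to 32390, 32920 and 36080 CPM in irradiated LBP libraries and 36240 and 42320 CPM in LBP libraries, LBP replicate 2 being highest. Without it the medians were -0.13 for ribosomal protein genes, -0.09 for respiratory chain genes and 0.29 for mitochondrially encoded genes. Besides these, ZBED6 and ZNF160, encoding zinc finger proteins, and COX16, an assembly factor of cytochrome oxidase, had among the smallest interaction p, with differences of 2.45 ± 0.40, 0.82 ± 0.19 and -0.56 ± 0.10 (edgeR, adjusted p = 0.20, 0.57 and 0.36). DESeq2 called the interaction of ZBED6 and COX16.

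Gene length moved with these lists. Exon length was the union of all annotated exons of a gene, not the length of its transcripts. The features with a known exon length were split into 5 bins of equal size. In the shortest bin the median log2 fold change after LBP was -0.09 and 34.4% of features had positive values; in the longest bin the median was 0.05 and 61.8% had positive values. Without LBP the medians ran the other way, 0.04 in the shortest bin and -0.04 in the longest. By library, the shortest minus the longest bin (median log2 deviation from each feature's mean) was -0.11, -0.06 and 0.02 in irradiated LBP libraries and -0.02 and 0.19 in LBP libraries, so LBP replicate 2 stood highest. With the length trend removed from each library, a setting chosen after seeing the data, the median was -0.19 for ribosomal protein genes, 0.57 for mitochondrially encoded genes and -0.36 for G2 and mitosis genes, of which 15 fell. In that setting the median was -0.21 for heat shock genes, -0.06 for NRF2 genes and -0.11 for histone genes, and 26 of the 30 respiratory chain genes had negative values. In all 20 features passed, each among the 21. By the exon measure the median length was 3720 bases for ribosomal protein genes and 3151 bases for respiratory chain genes. Transcripts can be shorter than this measure, so a trend with transcript length could remain, which was not tested. Of the 19 lower features 7 lay in the shortest bin and 1 in the longest.

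**Figure D5:**
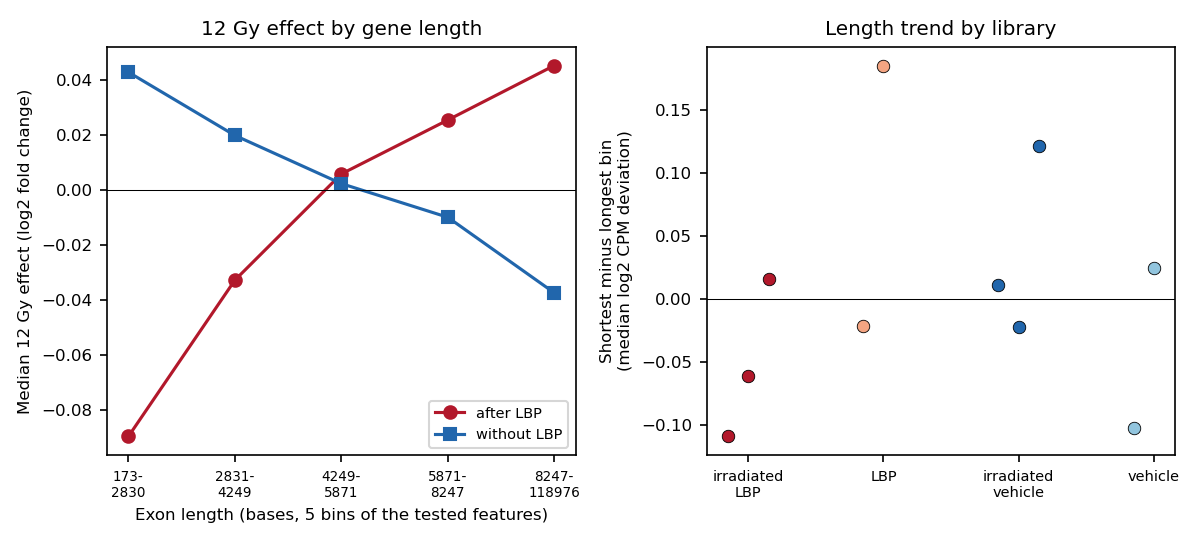
Left, median log2 fold change with 12 Gy in 5 bins of the tested features by exon length, after LBP and without LBP; right, the shortest minus the longest bin in each library, as a median log2 CPM deviation. After LBP the medians climb with length, -0.09 in the shortest and 0.05 in the longest bin, and LBP replicate 2 has the highest value of the 10 libraries at 0.19.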

How the data were processed

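RNA sequencing libraries of HaCaT cells were mapped with HISAT2 to GRCh38, per the submitters' processing notes. For the counting tool, the strand setting and the annotation, nothing is stated in the labels. The authors deposited whole-number read counts and FPKM (fragments scaled for length and depth) per feature. Even counts were in excess (6040 values of 2, against 1398 of 1 and 3256 of 3), and the reason is not given. The table held 22003 features; its columns were matched to samples by name, with 0 columns of other samples.

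Features were filtered with filterByExpr (minimum count 10), leaving 14799, scaled by TMM and fitted with edgeR 4.0.16 (R 4.3.3) quasi-likelihood models with 1 mean per group over all 10 libraries (6 residual degrees of freedom), with Benjamini-Hochberg adjustment over all features tested. Values after ± are standard errors for log2 fold changes and SD for levels. CPM are not scaled for length, so levels are not compared between genes. The code was tested on simulated data. Alternatives used DESeq2 1.42.0, limma 3.58.1 on log2 (deposited FPKM + 0.1 or 1), other scalings and filters, and libraries left out.

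Named were up to 15 called genes each way (mean log2 CPM of at least 1, groups not overlapping, no clone names), up to 5 members per role of each list with the smallest p and a fixed set of stress genes. The members and lists were chosen with earlier results of these data known. Positions are from GENCODE v29 (99.3% of named features matched) and promoters from RefSeq.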

Additional observations from a re-analysis of the deposited data

Results flagged for a closer look

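The test of the difference between the 12 Gy effects after LBP and without LBP singled out 2 features. For PDE8B the fitted difference was 8.82 on the log2 scale (interaction, edgeR, adjusted p = 0.00441), with 61, 45 and 65 counts in irradiated LBP and 0 and 0 in LBP libraries, and 37, 60 and 47 counts in irradiated vehicle and 37 and 55 in vehicle libraries. For AC008982.1 the fitted difference was -15.2 (adjusted p = 0.00611), with 0 counts in irradiated LBP and 21 and 18 in LBP libraries, and 22, 34 and 33 counts in irradiated vehicle and 0 and 0 in vehicle libraries. With groups at 0, both fitted values depend on the prior count and are no measure of size. Groups of 2 or 3 libraries are too small for a rule that marks a single library as outlying.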

How the results depend on the processing

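The count for irradiated LBP against LBP cells (21 features) came to 45 with no filter on low counts (80% lower), 184 with DESeq2 (56.5% lower, against 90.5%), 10 with only these 2 groups in the model, 11 and 10 with limma on log2 FPKM plus 0.1 and plus 1, 8 with limma and no filter, and 8 to 51 with 1 library left out. It stayed within 1.5 times of 21 with RLE size factors (21), no TMM (19), at least 1 CPM (19) and, added after seeing the data, the length trend removed (20) or the length and GC trends removed (29). AURKA, CCNF, FAM83D, CENPA and AL355312.5 passed in all 18 settings, and PDE8B in all 16 that gave it an adjusted p. KIF18B and G2E3 were lost in 11, CKS2 and MUC1 in 10. The G2 and mitosis count (15) was 29 with no filter, 49 with DESeq2, 6 with 2 groups, 8, 7 and 4 with limma, and 6 to 20 with 1 library left out. The vehicle comparison (65) gave 129 with DESeq2, 109 with 2 groups, 41, 37 and 26 with limma, and 25 to 35 with 1 library left out. The interaction (2) gave 7 with no filter, 0 at 1 CPM, 16 with DESeq2, 4 and 5 with limma on log2 FPKM plus 0.1 with and without the filter, and 0 to 5 with 1 library left out. Same-numbered irradiated LBP and LBP libraries correlated at 0.308 and -0.01 in their deviations from group means. The deviations of the 2 LBP libraries mirror each other, so these values cannot decide whether the numbers mark pairs. The numbers are not known to pair samples and were not taken as pairs. A replicate block gave 31 calls (18 shared), 21 in the G2 and mitosis list, 56 in the vehicle comparison and 1 for the interaction, also 1 with length removed and the block. The sign turned for GDF15 without irradiated LBP replicate 3 (-0.136; up to 1.96 with another library left out), TXNIP without irradiated LBP replicate 2 (-0.0513; up to 0.189), and CYP1A1 without irradiated LBP replicate 2 (0.0195) or LBP replicate 2 (0.058; down to -0.204). The cause of these changes was not tested. With 2 LBP libraries, leaving out 1 assumes that the other varies like the other groups, and levels below 0.0942 CPM cannot be told from 0 in every library.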
